A study of Mus musculus with 18 samples.

Results

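Transcripts of 10 nucleic acid sensors and restriction factors, chosen by gene symbol from the 43280 genes in the count files, were measured by RNA-seq in 4 groups of mouse T cells. The 10 genes were Ddx58, Ifih1, Dhx58, Mb21d1, Tmem173, Trex1, Zbp1, Eif2ak2, Samhd1 and Samd9l, and 9 of them passed the filter on low counts. Trex1 was listed at 0 counts in all 18 libraries and was not tested. The groups were CD8+ cells labelled iRTE (n = 5 libraries, an abbreviation that the labels do not spell out), CD8+ cells labelled Artificial CD8 (n = 5), naive CD8+ cells taken directly from the spleen of transgenic mice (splenic CD8, n = 5), and cells positive for both CD4 and CD8 (CD4+CD8+, n = 3).

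The 3 cultured groups were differentiated from induced pluripotent stem cells labelled Pmel, the splenic libraries carry the same word in their descriptions, and the transgene and the age of the mice are not given. The design names CD4+CD8+ and CD8+ products of OP9-DL1, a stromal line that displays a Notch ligand, and a CD8+ product of a 3D thymic culture. The descriptions tie Artificial CD8 to OP9, so iRTE is the 3D product by elimination, although the growth text of every sample names OP9-DL1. The labels give no treatment for any group. Sorting used CD45, the T cell receptor, CD8 and CD4, and cells positive for NK1.1, the gamma-delta receptor or CD11c were discarded. Nothing in the labels states that the libraries of a group are independent cultures or animals. The p-values therefore reflect only the spread between these libraries, which may be technical.

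Cells detect viral or misplaced nucleic acids with a small set of receptors. In the cytosol, RIG-I-like helicases bind double-stranded RNA and signal through the mitochondrial adaptor MAVS, whereas the enzyme cGAS binds DNA and makes a cyclic dinucleotide that activates STING; both routes lead to type I interferon. Many of these sensors are themselves induced by interferon, and restriction factors such as SAMHD1, which breaks down deoxynucleotides, and SAMD9L, which limits poxvirus growth, act on the virus or its substrates inside the infected cell.

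Promoter windows are shown for 5 members because interferon acts on transcription through short elements near gene starts. An interferon signature is described further below. Whether the levels of the members depend on these elements or on interferon was not tested. Each window runs 5′ to 3′ in the direction of its gene from 250 bases before to 50 bases after the RefSeq start, on the minus strand of GRCm38.p6, a build that differs from the mm9 named for the counts. Capitals mark either the core of an interferon-stimulated response element, searched as GAAA, 2 bases of any kind and GAAA on both strands, or the core of a gamma-activated site, searched as TTC, 3 bases of any kind and GAA, which reads the same on both strands.
Ddx58, chr4:40239776-40240075: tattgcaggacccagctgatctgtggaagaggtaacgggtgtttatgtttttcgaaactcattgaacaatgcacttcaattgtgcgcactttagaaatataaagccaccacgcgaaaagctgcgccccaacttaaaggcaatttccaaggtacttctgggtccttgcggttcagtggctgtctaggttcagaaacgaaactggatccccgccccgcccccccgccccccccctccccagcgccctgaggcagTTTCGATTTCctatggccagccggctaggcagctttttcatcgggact
Ifih1, chr2:62646206-62646505: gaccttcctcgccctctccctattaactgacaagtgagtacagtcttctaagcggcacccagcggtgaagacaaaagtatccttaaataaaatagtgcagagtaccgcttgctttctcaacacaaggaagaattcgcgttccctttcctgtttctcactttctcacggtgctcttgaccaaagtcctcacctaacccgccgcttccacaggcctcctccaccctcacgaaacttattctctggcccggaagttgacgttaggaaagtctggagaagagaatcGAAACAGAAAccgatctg
Eif2ak2, chr17:78882523-78882822: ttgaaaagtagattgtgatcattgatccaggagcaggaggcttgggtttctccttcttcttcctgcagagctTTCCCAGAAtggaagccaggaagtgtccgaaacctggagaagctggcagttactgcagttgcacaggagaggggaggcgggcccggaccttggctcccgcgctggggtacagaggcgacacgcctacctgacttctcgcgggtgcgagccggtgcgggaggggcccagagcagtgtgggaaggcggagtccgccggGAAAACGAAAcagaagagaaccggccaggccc
Samhd1, chr2:157135047-157135346: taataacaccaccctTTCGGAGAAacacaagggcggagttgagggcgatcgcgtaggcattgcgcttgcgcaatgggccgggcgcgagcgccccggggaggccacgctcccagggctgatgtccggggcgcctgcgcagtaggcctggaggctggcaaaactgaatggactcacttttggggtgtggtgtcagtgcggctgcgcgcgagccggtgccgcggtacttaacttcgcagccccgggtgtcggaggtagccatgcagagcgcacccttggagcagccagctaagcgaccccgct
Samd9l, chr6:3399522-3399821: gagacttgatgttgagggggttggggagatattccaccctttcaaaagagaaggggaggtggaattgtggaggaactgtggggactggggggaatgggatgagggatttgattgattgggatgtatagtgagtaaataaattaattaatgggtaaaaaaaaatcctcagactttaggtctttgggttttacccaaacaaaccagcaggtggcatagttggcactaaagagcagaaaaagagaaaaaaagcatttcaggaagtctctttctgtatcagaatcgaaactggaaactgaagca
RefSeq windows were searched for 7 of the 10 members, the 5 above, Mb21d1 and Trex1. Dhx58, Tmem173 and Zbp1 were not searched, so whether their windows hold either element was not tested. The interferon element was found in 3 of the 7, starting 2 bases past the gene start in Ddx58, 32 bases past it in Ifih1 and 18 bases past it in Eif2ak2, and 3.44% of all 32851 windows of this length held it. The gamma-activated core was found in 2 of the 7, at 178 bases before the start in Eif2ak2 and 235 bases before it in Samhd1, against 8.30% of all windows. These matches describe the letters of the windows, and no binding was measured.

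The 18 libraries held 11132768 to 19305751 counts, so 3 counts corresponded to 0.152 to 0.287 CPM (read counts scaled to a common library size). T cell markers were high in every library, at 5620 to 9371 CPM summed over the 8 of the list. Cd4 was at 0 in all 5 iRTE libraries, at most 9.17 CPM in Artificial CD8 and at most 0.162 CPM in splenic CD8, and between 155 and 263 CPM in CD4+CD8+ cells, as the labels say. Marker genes of other cell types had low sums that differed by group. The 7 stromal genes summed to 0.973 to 3.73 CPM in iRTE, 17.2 to 26.3 CPM in Artificial CD8, 2.11 to 3.62 CPM in splenic CD8, and 1.38, 27.1 and 37.4 CPM in the 3 CD4+CD8+ libraries, with 5, 3, 5 and 2 of the 7 genes at 0 throughout those groups. In Artificial CD8 this sum was mostly Pdgfrb, at 18.5 CPM on average, with Col1a1 at 0.245, Col1a2 at 1.83 and Col3a1 at 0.567 CPM. CD4+CD8+ cells averaged 5.94, 4.72, 7.64 and 2.93 CPM of the same genes. Pdgfrb was thus higher and the collagen genes were lower in Artificial CD8, so these sums were not read as amounts of stromal cells. The 5 thymic epithelial genes, nearly all of it Epcam, summed to 0.621 to 8.78 CPM in iRTE and 29.8 to 39.2 CPM in Artificial CD8. They summed to 1.62 to 4.28 CPM in splenic CD8 and 15.6 to 19.4 CPM in CD4+CD8+ cells. In that order of groups, 2, 2, 3 and 4 of the 5 genes were at 0 throughout. This sum therefore describes Epcam and was not read as a trace of a cell type. Transcripts of erythroid and B cells were highest in the splenic libraries. Erythroid genes summed to 74.3 to 100.1 CPM there and to at most 1.29 CPM elsewhere, and B cell genes to 33.4 to 46.5 CPM there and to at most 7.10 CPM elsewhere. Myeloid and dendritic genes summed to at most 19.5 CPM, and NK genes to at most 3.93 CPM, in any library. Whether such other cells were present, and their part in the results below, was not tested. In sorted bulk samples fewer cells of a type and less RNA per cell cannot be told apart.

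Of the 9 tested members, 7 were higher in iRTE than in Artificial CD8 cells and none was lower. In the edgeR quasi-likelihood fit over all genes, 20.0% of the 13922 tested genes were higher and 18.7% lower in this comparison at an adjusted p under 0.05, the rule for a call throughout. The median log2 difference was 1.07 over the 9 members and 0.006 over all tested genes. Against splenic CD8 cells, 2 members were higher in iRTE and 6 lower, where 29.2% of all tested genes were higher and 29.0% lower, and the medians were -0.63 and -0.05. Against CD4+CD8+ cells, 7 members were higher in iRTE and none lower, where 11.8% of all tested genes were higher and 12.3% lower, and the medians were 1.09 and 0.02. That last count fell to 3 when the model was fitted on those groups alone and to 4 when iRTE 1 to 3 were left out.

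Artificial CD8 cells were lower than splenic CD8 cells in 8 of the 9 tested members and higher in none, where 30.3% of all tested genes were higher and 30.2% lower. The medians were -1.51 for the members and -0.03 for all tested genes. Between Artificial CD8 and CD4+CD8+ cells, 1 member was called lower and none higher, where 6.54% of all tested genes were higher and 8.12% lower, and the medians were -0.23 and 0.002. Without CD4+CD8+ library 1 the members called lower were 2, Eif2ak2 being the addition. Splenic CD8 cells exceeded CD4+CD8+ cells in 6 members and were lower in 1, where 27.4% of all tested genes were higher and 28.9% lower, with medians of 1.29 and 0.03. The members called higher there were 7 with DESeq2 and with limma-voom, Eif2ak2 being the addition. These 6 comparisons share groups, so their counts are not independent of each other.

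**Figure D1:**
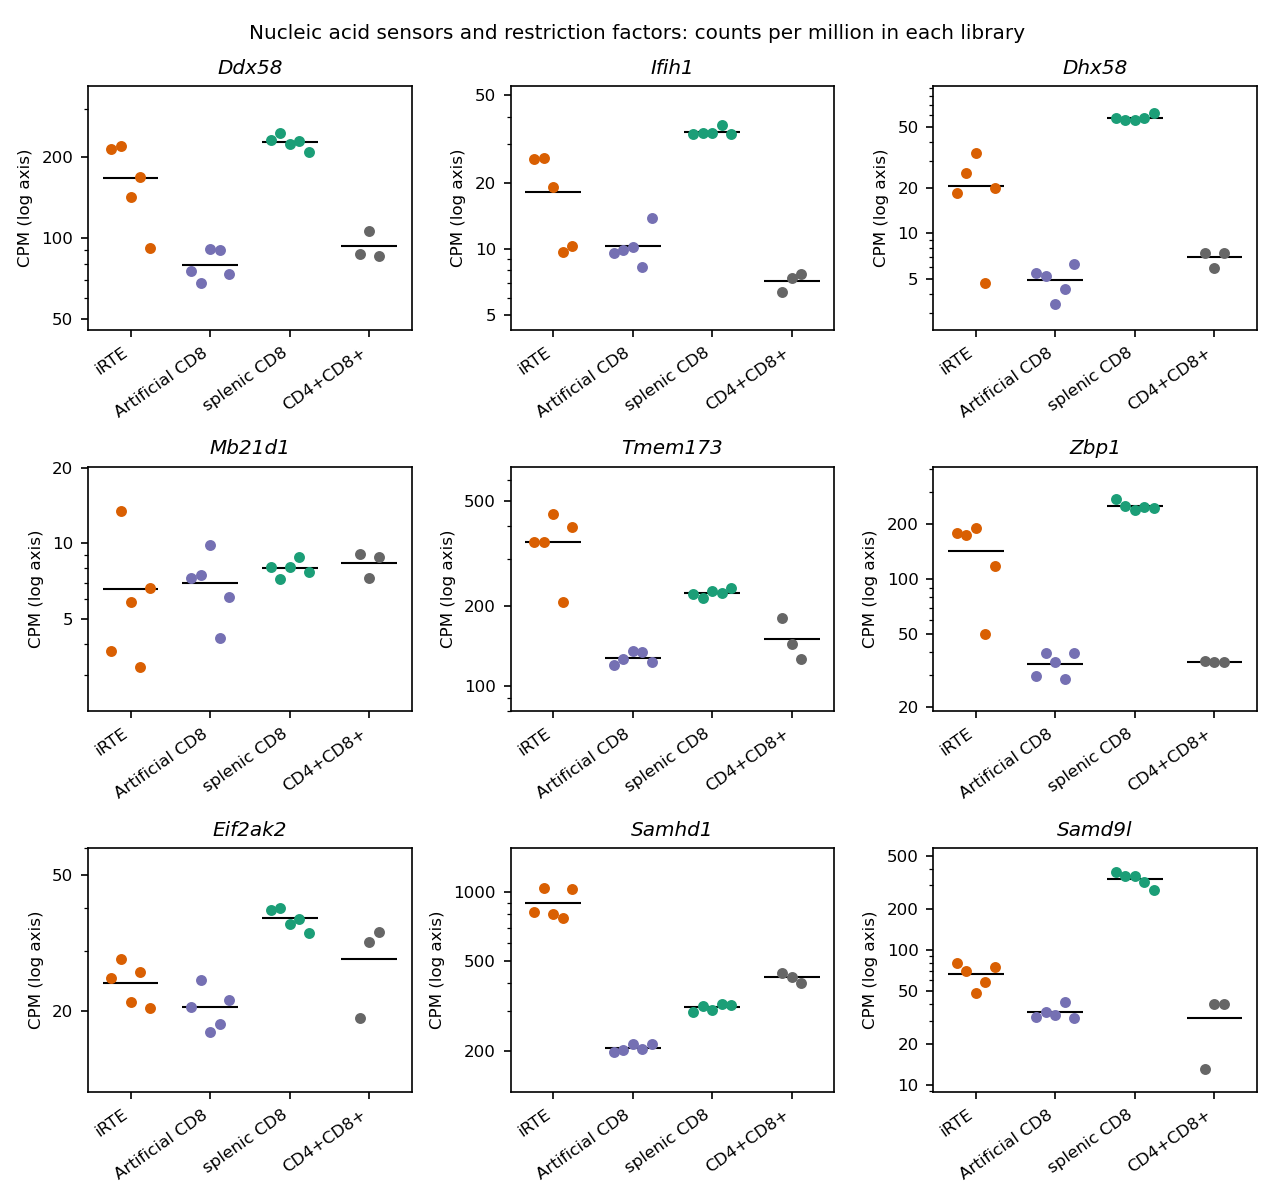
CPM (library-size-scaled counts, log axis) of the 9 tested members in each of the 18 libraries, with iRTE, Artificial CD8, splenic CD8 and CD4+CD8+ from left to right; points are libraries and black lines are group means. Splenic CD8 points lie above all others for Ifih1, Dhx58, Zbp1 and Samd9l, iRTE points lie above all others for Samhd1, and Mb21d1 points overlap between all groups.

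The 3 RNA sensors had their highest group means in splenic cells. Ddx58, which encodes RIG-I, the sensor of short double-stranded RNA with triphosphate ends, was measured at 214, 219.9, 142, 168 and 91.5 CPM in the 5 iRTE libraries. Artificial CD8 libraries had 75.7, 68.2, 91.3, 90.0 and 73.5 CPM, splenic CD8 libraries had 232, 244, 224, 229 and 209 CPM, and CD4+CD8+ libraries had 86.9, 107 and 86.1 CPM. The first pair of iRTE libraries reached the splenic range, whereas iRTE 5 lay only just above the highest Artificial CD8 library and inside the CD4+CD8+ range. Ddx58 was 2.09-fold higher in iRTE than in Artificial CD8 cells (log2 fold change 1.07 ± 0.25 SE, adjusted p = 8.88e-05) and 1.79-fold higher than in CD4+CD8+ cells (0.84 ± 0.25, adjusted p = 0.00558). The second call was lost with only those groups in the fit (adjusted p = 0.0844) and without iRTE 1 to 3 (0.48, adjusted p = 0.0909). It was called 1.36-fold lower in iRTE than in splenic CD8 cells (-0.45 ± 0.23, adjusted p = 0.0327). Leaving out iRTE 3, iRTE 5 or any of splenic CD8 1, 2, 3 and 4 ended that call, at log2 fold changes between -0.44 and -0.29 and adjusted p between 0.0540 and 0.0769. It was also lost with only iRTE and splenic CD8 in the fit (-0.44, adjusted p = 0.0802) and with iRTE 1 to 3 alone (-0.25, adjusted p = 0.112). The call held in 12 of 20 alternatives. Artificial CD8 cells were 2.85-fold below splenic cells (-1.51 ± 0.09, adjusted p = 5.76e-07) and not called against CD4+CD8+ cells (-0.23 ± 0.13, adjusted p = 0.496). Splenic cells were 2.44-fold above CD4+CD8+ cells (1.29 ± 0.11, adjusted p = 4.48e-05).

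Ifih1 encodes MDA5, the helicase that forms filaments on long double-stranded RNA. It was at 25.7, 25.8, 19.2, 9.71 and 10.4 CPM in iRTE, 9.61, 9.92, 10.2, 8.27 and 13.8 CPM in Artificial CD8, 33.3, 33.6, 33.7, 36.8 and 33.4 CPM in splenic CD8, and 6.39, 7.36 and 7.69 CPM in CD4+CD8+ cells. The iRTE libraries split by their descriptions: iRTE 1 to 3, described as mature A to C, stood above every Artificial CD8 library, and iRTE 4 and 5, described by another name, stood among them. The call between iRTE and Artificial CD8 cells (0.80 ± 0.33, adjusted p = 0.0125) was lost without iRTE 1 to 3, when the value was -0.06 (adjusted p = 0.858), with limma-voom (0.62, adjusted p = 0.0552) and with only those groups in the fit (0.79, adjusted p = 0.0601). Ifih1 was 1.89-fold lower in iRTE than in splenic cells (-0.92 ± 0.31, adjusted p = 0.00288) with no overlap of libraries. It was 2.53-fold higher in iRTE than in CD4+CD8+ cells (1.34 ± 0.32, adjusted p = 0.00256), a call lost with only those groups in the fit (adjusted p = 0.0647) and without iRTE 1 to 3 (0.49, adjusted p = 0.0975). Artificial CD8 cells were 3.29-fold lower than splenic cells (-1.72 ± 0.12, adjusted p = 6.23e-06), and splenic cells were 4.77-fold higher than CD4+CD8+ cells (2.25 ± 0.08, adjusted p = 5.44e-06).

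Dhx58 encodes LGP2, the family member that lacks the signalling domains and tunes the other helicases. Its levels were 18.4, 24.8, 34.0, 4.73 and 19.9 CPM in iRTE, 5.45, 5.24, 3.43, 4.31 and 6.23 CPM in Artificial CD8, 57.5, 55.8, 55.9, 57.3 and 62.2 CPM in splenic CD8, and 7.43, 5.94 and 7.45 CPM in CD4+CD8+ cells. In 4 iRTE libraries it stood between the Artificial CD8 and splenic ranges, and iRTE 4 fell within the Artificial CD8 range. Dhx58 was 4.11-fold higher in iRTE than in Artificial CD8 cells (2.04 ± 0.50, adjusted p = 6.75e-05) and 2.84-fold lower than in splenic cells (-1.51 ± 0.48, adjusted p = 0.000418). The gap between Artificial CD8 and splenic cells was 11.7-fold (-3.55 ± 0.15, adjusted p = 4.58e-08), the widest of the 9 tested members in that comparison. Dhx58 was 2.92-fold higher in iRTE than in CD4+CD8+ cells (1.55 ± 0.49, adjusted p = 0.00639) and 8.31-fold higher in splenic than in CD4+CD8+ cells (3.05 ± 0.11, adjusted p = 5.21e-06). The call of iRTE over CD4+CD8+ cells was lost with limma-voom (1.22, adjusted p = 0.104), with only those groups in the fit (1.55, adjusted p = 0.0937) and without iRTE 1 to 3 (0.83, adjusted p = 0.131). In the annotation 4.31% of its exon bases are shared with Dhx58os on the other strand, and whether counting used strand is not given in the sources used here.

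Mb21d1, which encodes the DNA sensor cGAS, was measured at 3.73, 13.4, 5.84, 3.24 and 6.65 CPM in iRTE, 7.28, 7.52, 9.82, 4.21 and 6.13 CPM in Artificial CD8, 8.04, 7.21, 8.08, 8.86 and 7.72 CPM in splenic CD8, and 9.07, 7.28 and 8.82 CPM in CD4+CD8+ cells. The ranges of all 4 groups overlapped, the 5 splenic libraries spread least, and iRTE 2 was the highest of the 18 libraries. No comparison called it, with log2 fold changes between -0.36 ± 0.37 for iRTE against CD4+CD8+ cells and -0.07 ± 0.11 for splenic CD8 against CD4+CD8+ cells and adjusted p between 0.460 and 0.880. Leaving out iRTE 2 turned the comparison of iRTE with splenic cells into a call (-0.71, adjusted p = 0.0304). Its counts ran from 39 to 166 per library, and in iRTE its SD was 4.07 CPM around a mean of 6.57 CPM. No difference was called with all libraries in the fit, and whether depth or this spread set that limit was not tested.

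Tmem173 encodes STING, the adaptor in the endoplasmic reticulum that the cGAS product activates. It was at 348, 349, 447, 207 and 398 CPM in iRTE, 119.9, 127, 136, 133 and 122 CPM in Artificial CD8, 221, 215, 228, 224 and 234 CPM in splenic CD8, and 181, 143 and 126 CPM in CD4+CD8+ cells. In iRTE, 4 libraries lay above every other library, and iRTE 4 lay just under the splenic range but above the other cultured groups. Tmem173 was 2.74-fold higher in iRTE than in Artificial CD8 cells (1.46 ± 0.19, adjusted p = 4.55e-07) and 1.56-fold higher than in splenic cells (0.64 ± 0.19, adjusted p = 0.00108). Without iRTE 1 to 3 the second value was 0.44 (adjusted p = 0.0514). It was 1.76-fold lower in Artificial CD8 than in splenic cells (-0.82 ± 0.04, adjusted p = 0.000100), and 2.33-fold higher in iRTE than in CD4+CD8+ cells (1.22 ± 0.24, adjusted p = 5.71e-05). The call of splenic above CD4+CD8+ cells (0.58 ± 0.15, adjusted p = 0.00788) was lost without CD4+CD8+ library 3 (0.46, adjusted p = 0.0571). Only Tmem173 and Samhd1, among the 9 tested members, were called higher in iRTE than in splenic cells.

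Trex1, the exonuclease that clears cytosolic DNA before cGAS can meet it, had no count in any library. In GENCODE M21, a GRCm38 annotation used here only for structure, all 1147 of its exon bases lie inside exons of Atrip on the same strand, and Atrip had 359 to 806 counts per library. Reads from one gene there cannot be told from reads of the other by position, so the listed 0 was not read as a level of Trex1.

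**Figure D2:**
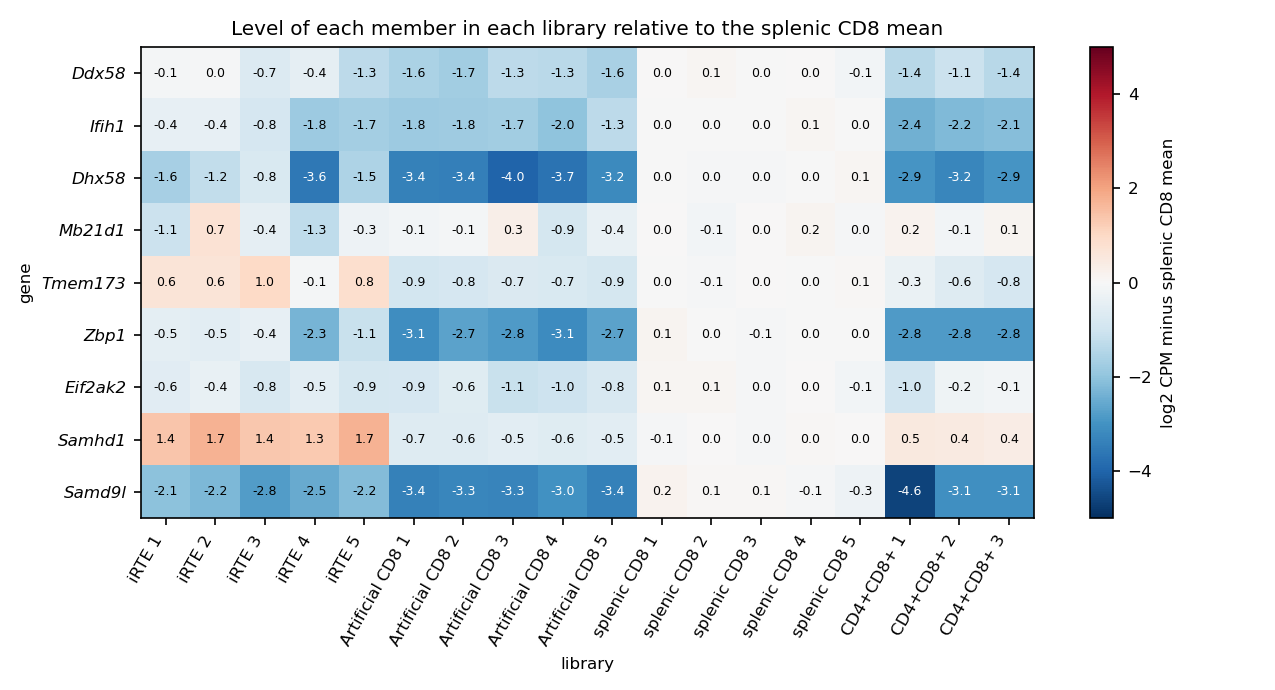
Difference on the log2 CPM scale between each library and the splenic CD8 mean, for the 9 tested members (rows) in the 18 libraries (columns, iRTE at the left and CD4+CD8+ at the right); red is above and blue below the splenic mean. Samhd1 is red in all 5 iRTE libraries, Samd9l is blue in all of them, and iRTE 4 is the bluest iRTE library for Dhx58 and Zbp1.

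Zbp1 encodes a sensor of Z-form RNA and DNA that can start necroptosis. The iRTE libraries had 179.7, 174, 192, 50.2 and 118 CPM, the Artificial CD8 libraries 29.4, 39.7, 35.2, 28.3 and 39.6 CPM, the splenic CD8 libraries 275, 251, 240.1, 249 and 247 CPM, and the CD4+CD8+ libraries 35.6, 35.2 and 35.4 CPM. All iRTE libraries stood above both cultured comparison groups and below the splenic ones, with iRTE 4 nearest to the cultured ones. Zbp1 was 4.14-fold higher in iRTE than in Artificial CD8 cells (2.05 ± 0.38, adjusted p = 2.56e-06), 4.03-fold higher than in CD4+CD8+ cells (2.01 ± 0.36, adjusted p = 6.75e-05) and 1.77-fold lower than in splenic cells (-0.82 ± 0.36, adjusted p = 0.00557). Artificial CD8 cells were 7.33-fold lower than splenic cells (-2.87 ± 0.11, adjusted p = 1.31e-08) and not called against CD4+CD8+ cells (-0.04 ± 0.10, adjusted p = 0.949). Splenic cells were 7.13-fold above CD4+CD8+ cells (2.83 ± 0.03, adjusted p = 4.07e-07).

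Eif2ak2 encodes PKR, the kinase that halts translation by phosphorylating eIF2 when it binds double-stranded RNA. It was at 25.0, 28.5, 21.2, 26.0 and 20.3 CPM in iRTE, 20.6, 24.7, 17.3, 18.3 and 21.6 CPM in Artificial CD8, 39.5, 40.1, 36.0, 37.3 and 33.9 CPM in splenic CD8, and 19.0, 31.9 and 34.1 CPM in CD4+CD8+ cells. Splenic libraries were above all iRTE and Artificial CD8 libraries, and the CD4+CD8+ libraries spanned from the cultured to the splenic level. The gene was 1.54-fold lower in iRTE than in splenic cells (-0.63 ± 0.10, adjusted p = 0.00208) and 1.82-fold lower in Artificial CD8 than in splenic cells (-0.87 ± 0.10, adjusted p = 9.41e-05). Between iRTE and Artificial CD8 cells the value was 0.24 ± 0.13 (adjusted p = 0.237), and between iRTE and CD4+CD8+ cells it was -0.23 ± 0.28 (adjusted p = 0.393). Single CD4+CD8+ libraries changed the calls of the other comparisons with that group. Without CD4+CD8+ 1 the value for Artificial CD8 was -0.69 (adjusted p = 0.0128, against 0.0847 with it), and without CD4+CD8+ 3 the value for splenic CD8 was 0.55 (adjusted p = 0.0392, against 0.0679 with it). With all libraries, splenic CD8 was called higher than CD4+CD8+ by DESeq2 (0.41, adjusted p = 0.0438) and limma-voom (0.44, adjusted p = 0.0380). The same held in edgeR with a filter of at least 10 CPM in at least 3 libraries (0.44, adjusted p = 0.0363). CD4+CD8+ 1 was also the library of its group with the lowest sum of stromal genes, and whether this bears on the level of Eif2ak2 was not tested.

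Samhd1, whose product hydrolyses deoxynucleotides and limits reverse transcription in resting cells, was the only one of the 9 tested members to separate all 4 groups. Its levels were 820.5, 1046, 802, 768 and 1039.9 CPM in iRTE, 197, 201, 216, 204 and 215 CPM in Artificial CD8, 299, 317, 303, 323 and 319 CPM in splenic CD8, and 442, 424 and 399 CPM in CD4+CD8+ cells. No group's range overlapped any other's, and the order was iRTE, CD4+CD8+, splenic CD8 and Artificial CD8 from high to low. Samhd1 was 4.34-fold higher in iRTE than in Artificial CD8 cells (2.12 ± 0.10, adjusted p = 1.83e-11), 2.87-fold higher than in splenic cells (1.52 ± 0.10, adjusted p = 2.49e-10) and 2.12-fold higher than in CD4+CD8+ cells (1.09 ± 0.11, adjusted p = 1.18e-06). Artificial CD8 cells were lower than CD4+CD8+ cells (-1.03 ± 0.05, adjusted p = 5.05e-06), the single member called in that comparison, and lower than splenic cells (-0.60 ± 0.03, adjusted p = 1.98e-05). Splenic cells were lower than CD4+CD8+ cells (-0.44 ± 0.05, adjusted p = 0.00184). All 6 calls held in each alternative run, with iRTE against Artificial CD8 between 2.05 and 2.17.

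Samd9l, which encodes an interferon-induced restriction factor of poxviruses, showed the reverse order between iRTE and splenic cells. It was at 80.3, 70.2, 47.9, 58.0 and 74.7 CPM in iRTE, 32.0, 34.9, 33.2, 41.3 and 31.5 CPM in Artificial CD8, 379, 349.7, 351, 318 and 277 CPM in splenic CD8, and 13.2, 40.1 and 40.1 CPM in CD4+CD8+ cells. Every splenic library was above every cultured one, and every iRTE library was above the other cultured libraries. Samd9l was 5.06-fold lower in iRTE than in splenic cells (-2.34 ± 0.16, adjusted p = 7.26e-08) and 9.69-fold lower in Artificial CD8 than in splenic cells (-3.28 ± 0.10, adjusted p = 7.70e-10). Splenic cells were 10.8-fold above CD4+CD8+ cells (3.43 ± 0.54, adjusted p = 1.64e-08). Samd9l was 1.92-fold higher in iRTE than in Artificial CD8 cells (0.94 ± 0.15, adjusted p = 0.00197) and 2.13-fold higher than in CD4+CD8+ cells (1.09 ± 0.55, adjusted p = 0.00455). The last value shrank to 0.72 (adjusted p = 0.00795) without CD4+CD8+ 1, the library at 13.2 CPM, and the call was lost with only those groups in the fit (1.09, adjusted p = 0.0867). Samd9l and Samhd1 differed between iRTE and splenic cells in opposite directions, both with no overlap of libraries.

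**Figure D3:**
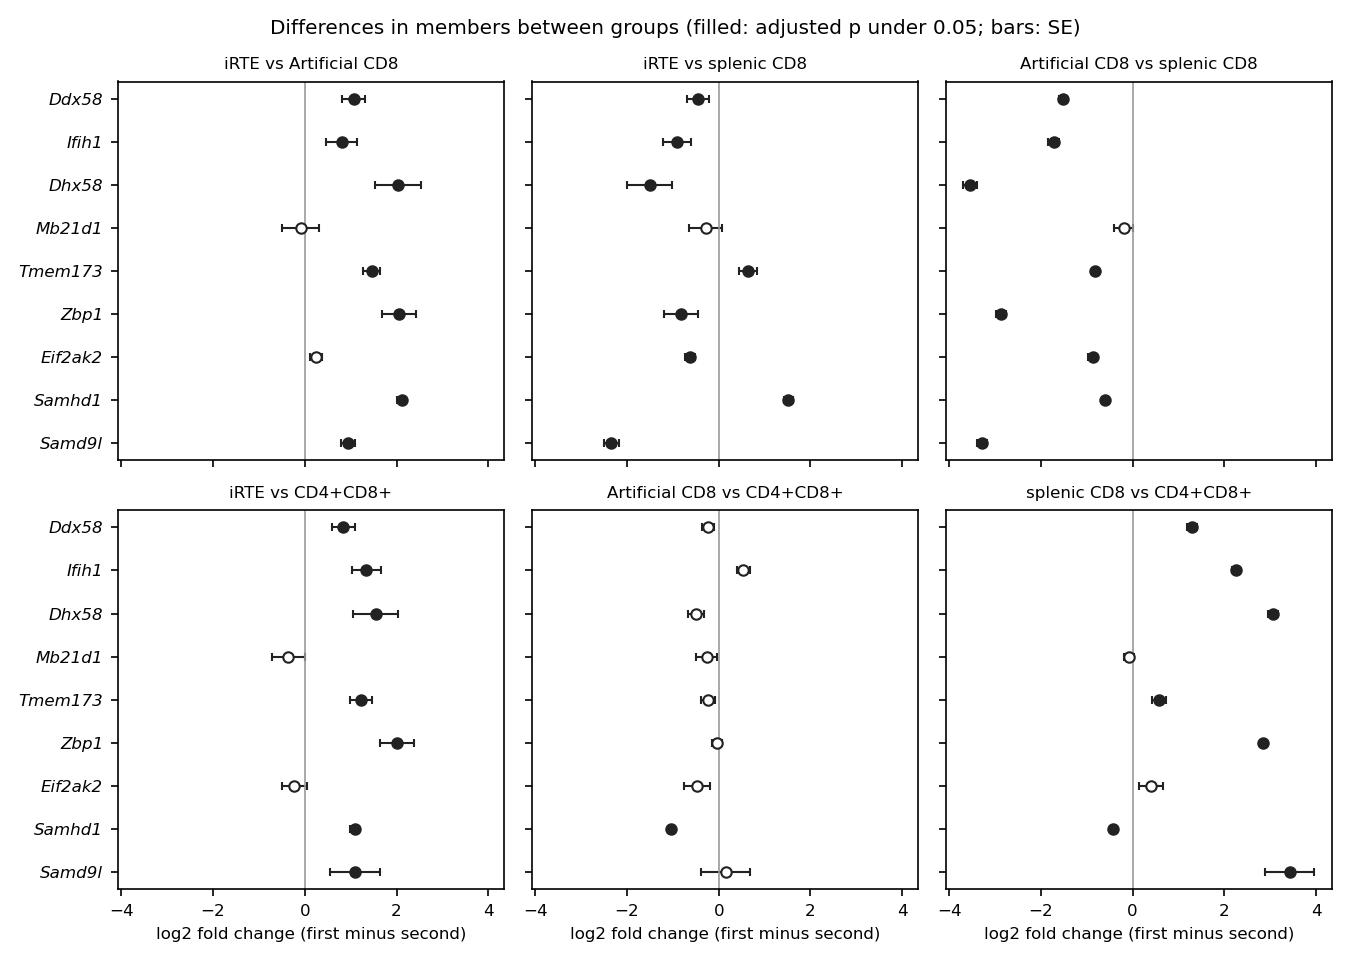
Log2 fold changes (first-named group minus second) of the 9 tested members in the 6 comparisons; bars are standard errors from the log2 CPM of the libraries, filled points passed an adjusted p of 0.05 and open points did not. Samhd1 stands at 1.52 and Samd9l at -2.34 for iRTE vs splenic CD8, and only Samhd1 is filled for Artificial CD8 vs CD4+CD8+.

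Levels per kilobase divide by all exon bases of a gene in GENCODE M21, 9150 for Samhd1 and 2741 for Tmem173. The gene models behind the counts are not given, so the order of genes depends on these lengths. On this scale Tmem173 was the highest member in iRTE at 128 ± 32.6 CPM per kilobase (SD, n = 5) and Samhd1 followed at 97.8 ± 14.9. In Artificial CD8 cells the same genes led, at 46.6 ± 2.50 and 22.6 ± 0.906 CPM per kilobase. In splenic CD8 cells Tmem173 led at 81.9 ± 2.58, then Zbp1 at 71.5 ± 3.78 and Samd9l at 61.7 ± 7.16, and in CD4+CD8+ cells Tmem173 was at 54.7 ± 10.2 and Samhd1 at 46.1 ± 2.36. The RNA helicases differed from each other in level: in splenic cells Ddx58 stood at 32.3 ± 1.82 CPM per kilobase, Dhx58 at 17.6 ± 0.802 and Ifih1 at 4.18 ± 0.181. Mb21d1 stayed between 1.59 and 2.03 CPM per kilobase in all group means.

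Across the 18 libraries, which share their groups, Dhx58 and Zbp1 varied most alike (Pearson r = 0.97 on log2 CPM) and Ifih1 and Zbp1 next (r = 0.93). Samd9l and Samhd1 had an r of -0.00065, and the highest r of Mb21d1 with another member was 0.24, with Dhx58. Among all tested genes outside the set, the nearest to Zbp1 were Irgm1, H2-T23 and Pstpip1 (r = 0.98 each), and those near Ifih1 included Hexa (0.97) and Gpr18 (0.96). For Dhx58 they were Psme2b, Psmb9 and Cd86 (0.98 each), where Psme2b has a near-identical copy and its counts are uncertain. For Ddx58 they were Fam101b, Adar and Il21r (0.96 each), and for Samd9l Gimap8 (0.99), Plcg1 and Map4k2 (0.98 each). Samhd1 had Usp3 (0.97), Bnip3l (0.97) and Pnpla2 (0.96), Tmem173 had Eml3 (0.96), Psme1 and Lpxn (0.95 each), Eif2ak2 had Pip4k2a, Ccng2 (0.93 each) and Mfap1b (0.92, a gene with a near-identical copy), and Mb21d1 had Glt8d1 (0.76), Efemp2 (0.75) and Pms2 (0.74). These values describe libraries that fall into groups, so they carry no test.

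The next lists of pathway genes were read in the same fit. Statements on which gene of a list rose or fell most cover only called genes averaging at least 5 CPM in the higher group. Each count stands beside the shares of all tested genes called higher and lower. These were 20.0% and 18.7% for iRTE against Artificial CD8, and 29.2% and 29.0% for iRTE against splenic cells. Artificial CD8 against splenic cells had 30.3% and 30.2%. Against CD4+CD8+ cells they were 11.8% and 12.3% for iRTE, 6.54% and 8.12% for Artificial CD8, and 27.4% and 28.9% for splenic CD8. Of 18 tested genes of an interferon signature, genes that interferon is known to induce, 13 were higher and none lower in iRTE than in Artificial CD8 cells, with a median log2 fold change of 0.99, and none was higher and 13 lower in iRTE than in splenic cells (median -1.30). All 18 were lower in Artificial CD8 than in splenic cells (median -2.18), and all 18 were higher in splenic than in CD4+CD8+ cells (median 2.66). Ifit1, which binds foreign RNA caps, was higher in iRTE than in Artificial CD8 cells, at 56.6 ± 41.9 and 2.96 ± 1.29 CPM (SD, n = 5 each; log2 fold change 4.24, adjusted p = 5.95e-06). Oasl1, an inhibitor of Irf7 translation, was lower in iRTE than in splenic cells, at 0.934 and 61.6 CPM on average (64.1-fold lower, adjusted p = 9.26e-08). Between iRTE and CD4+CD8+ cells 13 were higher and none lower, Ifit3 among them (5.40, adjusted p = 0.000581), and between Artificial CD8 and CD4+CD8+ cells 3 were higher and none lower, Cmpk2 among them (1.34, adjusted p = 0.0143). The summed signature was 1233, 1288, 1151, 631 and 652 CPM in iRTE 1 to 5, 433 to 513 CPM in Artificial CD8, 2175 to 2259 CPM in splenic CD8 and 418 to 473 CPM in CD4+CD8+ cells. The sums of iRTE 4 and 5 were below those of iRTE 1 to 3 and above those of the other cultured libraries. Ifi44 was at 0 in all cultured libraries and averaged 4.87 CPM in splenic cells, so its fitted values are no bound.

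Transcripts of the type I interferons themselves were not detected beyond single reads. The 18 genes of that family in the files summed to 0 counts of 69004838 in iRTE, 3 of 87213647 in Artificial CD8, 8 of 71334940 in splenic CD8 and 0 of 35784996 in CD4+CD8+ libraries, with at most 3 in any library. The gamma interferon gene Ifng was low as well, at 1.31 ± 1.98 CPM in iRTE, 0.463 ± 0.201 in Artificial CD8, 0.0283 ± 0.0633 in splenic CD8 and 0.285 ± 0.304 in CD4+CD8+ cells (SD). In the edgeR fit it was called higher than in splenic cells in iRTE (5.23, adjusted p = 0.00310) and in Artificial CD8 (3.73, adjusted p = 0.0262). The splenic mean lay below the floor of 3 counts. Within iRTE, library 5 had 4.73 CPM and libraries 1 and 3 had 0, with overlap with the splenic libraries.

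Downstream of the RNA helicases, 13 adaptors and kinases were tested. Against Artificial CD8 cells, 6 were higher and 2 lower in iRTE (median 0.18), and Irf7, the factor that amplifies interferon transcription, rose most, at 58.6 ± 39.1 and 15.5 ± 1.85 CPM (1.91, adjusted p = 0.00129), with overlapping libraries. Against splenic cells, 1 was higher and 9 were lower in iRTE (median -1.02). The one that was higher was Mavs, the adaptor of RIG-I and MDA5, at 69.3 ± 8.38 and 45.5 ± 6.10 CPM (0.61, adjusted p = 0.000800), and Irf7 was among the 9 that fell, with 379 ± 13.0 CPM in splenic cells (-2.70, adjusted p = 2.46e-05). In Artificial CD8 against splenic cells 1 was higher and 9 lower (median -0.97), with Irf7 24.4-fold lower. In splenic against CD4+CD8+ cells 10 were higher and none lower (median 0.89). Irf7 was also higher in iRTE than in CD4+CD8+ cells (1.62, adjusted p = 0.0231), where 3 of the 13 were higher and none lower. Artificial CD8 against CD4+CD8+ cells gave 2 higher and 1 lower, the fall being Ikbke, a kinase of Irf3 and Irf7 (-0.65, adjusted p = 0.000292). The 2 that were higher, Zcchc3 and Nlrx1, averaged 4.18 and 3.28 CPM in Artificial CD8 and 0 in CD4+CD8+ cells, so their fitted values are no bound. They were also the 2 lower in iRTE than in Artificial CD8, at 0.0384 and 0.142 CPM in iRTE. Both were among the 10 higher in splenic than in CD4+CD8+ cells.

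AIM2-like receptors, which bind DNA in the cytosol and nucleus, had 4 tested genes of 7, and their related sequences make the split of reads between them uncertain. All 4 were higher in iRTE than in Artificial CD8 cells (median 1.38), led by Aim2, the inflammasome receptor, at 29.3 ± 10.9 and 8.78 ± 1.09 CPM (1.74, adjusted p = 3.27e-06). None was higher and 3 were lower in iRTE than in splenic cells (median -1.61), Mndal falling most (-2.45, adjusted p = 7.35e-12). In Artificial CD8 cells all 4 were lower than in splenic cells (median -2.90) and all 4 were lower than in CD4+CD8+ cells (median -1.10), Pyhin1 falling most in both (-3.13, adjusted p = 7.47e-11, and -1.36, adjusted p = 0.000148). Splenic cells had all 4 higher than CD4+CD8+ cells (median 1.91), and iRTE against CD4+CD8+ cells gave 1 higher and 1 lower (median 0.37).

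In endosomes, where Toll-like receptors meet nucleic acids, 5 of 7 tested genes were higher and none lower in iRTE than in Artificial CD8 cells (median 1.02). Unc93b1, the chaperone that carries these receptors to endosomes, rose most, at 46.7 ± 3.33 and 15.5 ± 2.97 CPM (1.59, adjusted p = 1.98e-07). It was also higher in iRTE than in splenic cells, where it had 9.91 ± 1.27 CPM (2.23, adjusted p = 1.17e-09), and 3 genes of this list were higher and 2 lower there (median 0.26). Artificial CD8 against splenic cells gave 1 higher and 4 lower (median -0.89), with Tlr7, a receptor of single-stranded RNA, falling most (-2.82, adjusted p = 0.00287). The other comparisons gave 4 higher and none lower for iRTE against CD4+CD8+ cells, 0 higher and 2 lower for Artificial CD8 against CD4+CD8+ cells, and 2 higher and 1 lower for splenic CD8 against CD4+CD8+ cells (medians 0.58, -0.44 and 0.21).

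Of the 12 tested genes that limit self nucleic acids, as Trex1 does, 5 were higher and 2 lower in iRTE than in Artificial CD8 cells (median 0.16). Against splenic cells 5 were higher and 4 lower in iRTE (median -0.08), beside 29.2% and 29.0% of all tested genes. Dnase1l1, a DNase, rose most in iRTE over Artificial CD8 cells, at 23.5 and 5.66 CPM on average (2.05, adjusted p = 7.66e-07), and Rnaseh2b, a subunit of the enzyme that removes ribonucleotides from DNA, was 1 of the 2 that fell, at 42.7 ± 11.6 and 78.8 ± 3.64 CPM (-0.89, adjusted p = 0.000183). Against splenic cells Rnaseh2a rose most (1.08, adjusted p = 3.50e-07) and Enpp1, which degrades the cGAS product outside cells, fell most (-3.07, adjusted p = 0.00155). Artificial CD8 against splenic cells gave 3 higher and 4 lower, iRTE against CD4+CD8+ cells 5 higher and 1 lower, Artificial CD8 against CD4+CD8+ cells 1 higher and 2 lower, and splenic CD8 against CD4+CD8+ cells 4 higher and 3 lower (medians -0.39, 0.41, -0.01 and 0.31). The counts of Artificial CD8 against splenic cells were near the 30.3% and 30.2% of all tested genes. Those of splenic CD8 against CD4+CD8+ cells were near the 27.4% and 28.9% of all tested genes.

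Of the 8 tested eIF2 kinases and regulators around Eif2ak2, 2 were higher and 3 lower in iRTE than in Artificial CD8 cells (median -0.24; 20.0% and 18.7% of all tested genes), with Ppp1r15a, the stress-induced eIF2 phosphatase subunit, at 51.6 ± 60.6 and 16.4 ± 2.80 CPM with overlapping libraries (1.66, adjusted p = 0.00635). Prkra, an activator of PKR, was lower, with overlapping libraries (-1.37, adjusted p = 0.00310). Against splenic cells 2 were higher and 2 lower in iRTE (median -0.12), near the 29.2% and 29.0% of all tested genes, and against CD4+CD8+ cells none was called by edgeR (1 at an unadjusted p under 0.05, 1 by DESeq2 and 0 by limma-voom; median -0.08). Artificial CD8 cells had 4 higher and 3 lower than splenic cells and 1 higher and 1 lower than CD4+CD8+ cells, and splenic cells had 3 higher and 2 lower than CD4+CD8+ cells (medians 0.28, 0.24 and -0.19). The counts of splenic against CD4+CD8+ cells were near the 27.4% and 28.9% of all tested genes.

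Of 21 other restriction factors tested, 16 were higher and 1 lower in iRTE than in Artificial CD8 cells (median 1.01), and 4 were higher and 14 lower in iRTE than in splenic cells (median -0.84). Rsad2, the antiviral enzyme viperin, was among those higher than in Artificial CD8 cells, at 6.73 ± 5.69 and 0.444 ± 0.746 CPM with overlapping libraries (3.83, adjusted p = 0.00155), and N4bp1, an RNase, fell, at 27.8 and 55.8 CPM (adjusted p = 0.00158). Mov10, an RNA helicase that limits retroelements, was higher in iRTE than in splenic cells, at 176 ± 97.2 and 63.2 ± 5.91 CPM (1.48, adjusted p = 0.000174), with overlapping libraries. Mx1, a dynamin-like GTPase that blocks influenza virus in mice with an intact allele, was lower, at 4.15 ± 2.98 and 40.5 ± 3.39 CPM (-3.29, adjusted p = 0.000259). In Artificial CD8 against splenic cells 3 were higher and 15 lower (median -1.57), and Mx2 was at 0 or 1 count in each Artificial CD8 library against 179 to 341 counts in the splenic ones. Splenic cells had 15 higher and 2 lower than CD4+CD8+ cells (median 1.42), iRTE had 14 higher and 1 lower than CD4+CD8+ cells (median 0.72), and Artificial CD8 had none higher and 2 lower than CD4+CD8+ cells (median -0.10), Serinc5 being lower in all 3 of these comparisons. The Trim and Mx genes of this list have close copies in the genome, so their single values are uncertain.

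Of 11 tested genes of deoxynucleotide supply, the process that SAMHD1 opposes, 1 was higher and 7 lower in iRTE than in Artificial CD8 cells (median -0.89), and 6 were higher and 1 lower in iRTE than in splenic cells (median 0.65). Of the 6, Rrm1, Tk1 and Tyms had overlapping libraries. The summed list was 1219, 1052, 996, 551 and 945 CPM in iRTE 1 to 5 and 504 to 546 CPM in splenic CD8, so iRTE 4 lay just above the splenic range. Rrm2, the cell-cycle subunit of ribonucleotide reductase, was at 210.4 ± 94.4 CPM in iRTE, 553 ± 67.0 CPM in Artificial CD8, 30.0 ± 3.16 CPM in splenic CD8 and 445 ± 55.2 CPM in CD4+CD8+ cells. Its value was 2.81 for iRTE against splenic cells (adjusted p = 2.79e-07) and 4.21 for Artificial CD8 against splenic cells (adjusted p = 1.75e-09), and the largest fall in iRTE against Artificial CD8 cells was that of Dut, the dUTPase (-1.99, adjusted p = 2.01e-07). In the list 8 were higher and 2 lower in Artificial CD8 than in splenic cells, 1 higher and 7 lower in iRTE than in CD4+CD8+ cells, 1 higher and none lower in Artificial CD8 than in CD4+CD8+ cells, and 1 higher and 7 lower in splenic CD8 than in CD4+CD8+ cells (medians 1.57, -0.87, 0.14 and -1.52). By group mean Samhd1 was highest in iRTE, whereas Rrm2 was highest in Artificial CD8 and lowest in splenic cells.

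**Figure D4:**
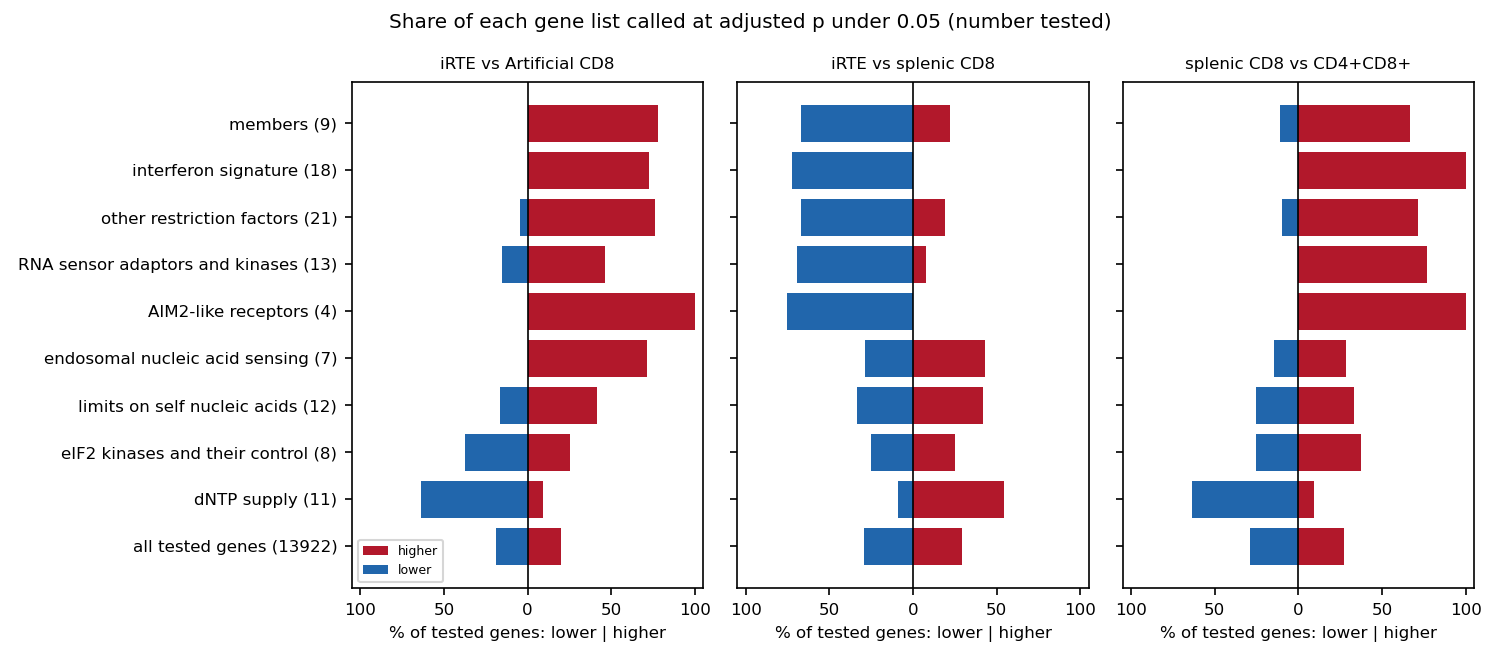
Percent of the tested genes of each list called higher (red, to the right) or lower (blue, to the left) in the first-named group of 3 comparisons, beside the 9 tested members and all 13922 tested genes; the number tested is in parentheses. The interferon signature has calls to the right alone for iRTE vs Artificial CD8 (13 of 18) and splenic CD8 vs CD4+CD8+ (18 of 18) and to the left alone for iRTE vs splenic CD8 (13 of 18), whereas deoxynucleotide supply has most calls on the opposite side in all 3.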

How the data were processed

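RNA was measured in 18 sorted libraries. The authors aligned reads with STAR 2.4.2 to mm9 and used Subread and edgeR, per the submitters' processing notes; the gene models and strand setting were not given in the sources used here. The deposited values are raw read counts per gene, and the file headers record that duplicates were marked. A deposited table of log2 expression values by the authors (17765 genes, 9 members) was compared only, and differed from the log2 CPM computed here by at most 0.0246.

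The counts were fitted in R 4.3.3 with edgeR 4.0.16 (TMM scaling on full library totals, filterByExpr, robust quasi-likelihood F test, 1 mean per group over all 18 libraries). P-values were adjusted by Benjamini-Hochberg over 13922 genes, with a call at an adjusted p under 0.05. CPM use the TMM-scaled totals, and each SE comes from the log2 CPM of the libraries with a prior count of 2. The script was tested on simulated data. Library totals of 11132768 to 19305751 and the floor of 3 counts cover counting error only. Replicate libraries differed beyond sampling noise, and the groups differed in this. Chi-square per degree of freedom of library pairs was 10.2 to 155 in iRTE and 5.40 to 51.2 in CD4+CD8+ cells. It was 7.68 to 20.1 in Artificial CD8 and 4.40 to 10.7 in splenic CD8 cells. The fit used 1 estimate of spread per gene over all 4 groups. P-values for iRTE and CD4+CD8+ cells thus draw partly on the spread of the tighter groups.

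Members and lists were chosen with earlier results of these data known. All members are named; per list and comparison, the rule names the called gene with the largest rise and that with the largest fall where the higher group averaged 5 CPM or more, and the text gives some of these. For likeness, the 3 genes with the highest Pearson r over 18 libraries are named, without predicted genes; 1 of them is not reported here. Gene structure came from GENCODE M21 and promoter windows from RefSeq. Alternatives were RLE and upper-quartile scaling, no filter, at least 10 CPM in at least 3 libraries, DESeq2 1.42.0, limma-voom (limma 3.58.1), a replicate block, fits on only the groups compared, each library left out, and iRTE 1 to 3 or iRTE 4 and 5 alone.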

Additional observations from a re-analysis of the deposited data

Results flagged for a closer look

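Of 27 sets of 5 libraries of a group and member tested for a single library far from the rest, 2 were marked, where chance marks about 1 in 20. Ifih1 in splenic CD8 4 was at 36.8 CPM, above the other 4 splenic libraries at 33.3 to 33.7 CPM. Dhx58 in splenic CD8 5 was at 62.2 CPM, above the other 4 at 55.8 to 57.5 CPM.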

How the results depend on the processing

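Of 966 member fold changes refitted over 28 alternatives, 929 kept their direction and their side of the threshold, 20 lost a call, 6 gained one and 11 changed direction, of which 10 were not called in either fit. The members called between iRTE and CD4+CD8+ cells were 3 with only those groups in the fit and 4 with iRTE 4 and 5 alone, against 7; between Artificial CD8 and CD4+CD8+ cells they were 1 to 2 when libraries were left out, against 1. Changes of direction were as follows. Zbp1 between Artificial CD8 and CD4+CD8+ cells was 0.0017 with upper-quartile scaling, and from -0.0948 to 0.0242 with a library left out. Mb21d1 between iRTE and Artificial CD8 cells was 0.14 with iRTE 1 to 3 alone, and from -0.522 to 0.0843 with a library left out. Samd9l between Artificial CD8 and CD4+CD8+ cells ran from -0.21 to 0.38 with a library left out. Ifih1 between iRTE and Artificial CD8 cells was -0.0552 with iRTE 4 and 5 alone. With replicate number as a block, no count of called members changed, Zbp1 between Artificial CD8 and CD4+CD8+ cells was 0.12 and Mb21d1 between splenic CD8 and CD4+CD8+ cells was 0.10. Same-numbered libraries correlated between -0.066 and 0.059 in their deviations from group means, so the numbers were not taken to pair libraries. Genes called between iRTE and CD4+CD8+ cells were 1069 with only those groups fitted, against 3366; between Artificial CD8 and CD4+CD8+ cells they were 3362 in such a fit and 1316 without CD4+CD8+ 1, against 2041. The cause was not tested. Mb21d1 was not tested under the 10 CPM filter (8 members were).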
